A study of Mus musculus with 8 samples.

Results

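The genes described are the mouse histone genes, which fall into a replication-dependent set and a variant set. All protein-coding genes of the annotation (GRCm38, Ensembl 96) were taken whose symbol starts with Hist1h, Hist2h, Hist3h, Hist4h, H2af or H3f3 or is H1f0 or H1fx, which gave 80 of the 55536 genes in each count file. Of these, 67 belong to the replication-dependent clusters (6 H1, 18 H2A, 18 H2B, 12 H3 and 13 H4 genes) and 13 are variants (2 H1, 9 H2A and 2 H3 genes). The rule used names and no expression value, but the members were chosen with earlier results of these data known.

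RNA was sequenced from OT-1 CD8+ T cells, which carry a transgenic receptor for the ovalbumin peptide SIINFEKL, from C57BL/6 mice on a Rag-1KO background that leaves the animals without other T cells or B cells. Lymph node cells from mice of both sexes were activated with 100 nM SIINFEKL for 2 days and then cultured in 20 ng/mL recombinant human IL-2 for 2 days. During the IL-2 culture, 4 replicates received 10 µM GC7, which inhibits deoxyhypusine synthase, the first enzyme of eIF5a hypusination. The other 4, labelled Mock, received the acetic acid vehicle. The replicates were described as biological, and came from mice of 5 to 12 weeks. Mock libraries held 20045041 to 25284730 counts and GC7 libraries 17528776 to 23449164. All 12 CD8 T cell markers looked at, among them Cd8a, Cd3e and Gzmb, passed the filter on low counts, whereas the B cell genes Ms4a1 and Pax5 and the myeloid genes Siglech and S100a8 had no count in any library. Of the other genes in those lists, 3 passed the filter: Cd79b, at 7.45 ± 1.44 CPM in Mock and 4.39 ± 0.483 CPM in GC7, Xcr1, at 5.11 ± 0.735 and 0.628 ± 0.186 CPM, and Zbtb46, at 0.455 ± 0.157 and 4.09 ± 0.679 CPM. The summed CD8 marker level was 9087 to 10712 counts per 1000000 (CPM, scaled by TMM factors) in Mock and 6107 to 7943 in GC7, with 8 of the 12 lower at an FDR under 0.01 and 2 higher, Cd8a and Cd5, where 23.5% of all tested genes were lower and 23.0% higher. The part of these differences in the histone values was not tested.

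Replication-dependent histones package newly made DNA. Their genes lie in clusters, mostly have a single exon, and are transcribed mainly in S phase. Their mRNAs are not polyadenylated: the pre-mRNA is cut just after a conserved stem-loop, and the stem-loop binding protein SLBP, the U7 snRNP and the exonuclease ERI1 govern its processing, translation and decay. Variant histones are made outside S phase as well, most of them from ordinary polyadenylated mRNAs, and replace the canonical proteins at particular places in chromatin. A library prepared from tailed RNA therefore holds little of the first kind of transcript. The data were described as mRNA-seq, and how the RNA was selected was not given further in the sources used here.

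The stem-loops are shown because transcripts cut just after them end without a tail. Some annotated transcripts run on past the loop, by 840 bases in Hist1h1c and 330 in Hist1h4i. The letters therefore do not show which of the counted transcripts lacked a tail. They were read from the GENCODE transcripts of the build used for counting as a stem of GGNNCT, a loop of NTNN and a stem of AGNNCC in direct succession on the transcript strand downstream of the stop codon, with N standing for any base. Capitals mark the 6 bases on each side that form the stem and lower case the 4-base loop.

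Hist1h1c, chr13:23739512-23739527 (+): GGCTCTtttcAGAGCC
Hist1h3c, chr13:23745047-23745062 (-): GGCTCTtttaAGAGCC
Hist1h4i, chr13:22040966-22040981 (-): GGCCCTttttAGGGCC
H2afx, chr9:44335240-44335255 (+): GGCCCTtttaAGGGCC

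The letters were found in 44 of the 52 replication-dependent genes with an annotated tail of at least 16 bases (84.6%) and in 173 of 20981 other genes with an annotated tail (0.825%). Among the 10 variants with such a tail, H2afx alone held a match, 47 bases after its stop codon. H2AX, the variant that is phosphorylated around DNA breaks, is known to be made from both a stem-loop and a polyadenylated mRNA. In replication-dependent genes the loop began 22 to 59 bases after the stop codon, with a median of 32. The form of Hist1h1c was the most common, in 26 genes, none of them H4. The 11 H4 genes with a match used the stems GGCCCT or GGTCCT, which no gene of another replication-dependent family had. No match was found in the annotated tails of Hist1h2bc, a 2-exon gene with up to 742 bases after the stop codon, and Hist2h2be, with 2192 bases. A further 15 replication-dependent genes have too short an annotated tail to be searched.

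Replication-dependent transcripts were scarce and lower in GC7. Summed over the 67 genes they took 2179, 3382, 2373 and 3029 counts in Mock libraries 1 to 4 and 1158, 1250, 1137 and 1378 in GC7 libraries 1 to 4, so that the groups did not overlap. As a share of all counts this was 0.0124% ± 0.00194 (SD, n = 4) in Mock and 0.00602% ± 0.00031 (n = 4) in GC7. On the scaled level the sum was 129 ± 21.3 CPM in Mock and 58.3 ± 3.27 CPM in GC7, a ratio of 2.21. The 13 variants together took far more counts, 57805 to 81525 in Mock and 43575 to 58889 in GC7, and their summed level was 3103 ± 232 CPM in Mock and 2385 ± 56.0 CPM in GC7, a ratio of 1.3. Replication-dependent genes supplied 3.55% to 4.74% of all histone counts in the Mock libraries and 2.29% to 2.54% in the GC7 libraries. No test was run over these sums. In bulk RNA, fewer cells expressing a gene and less RNA of it per cell cannot be told apart.

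**Figure D1:**
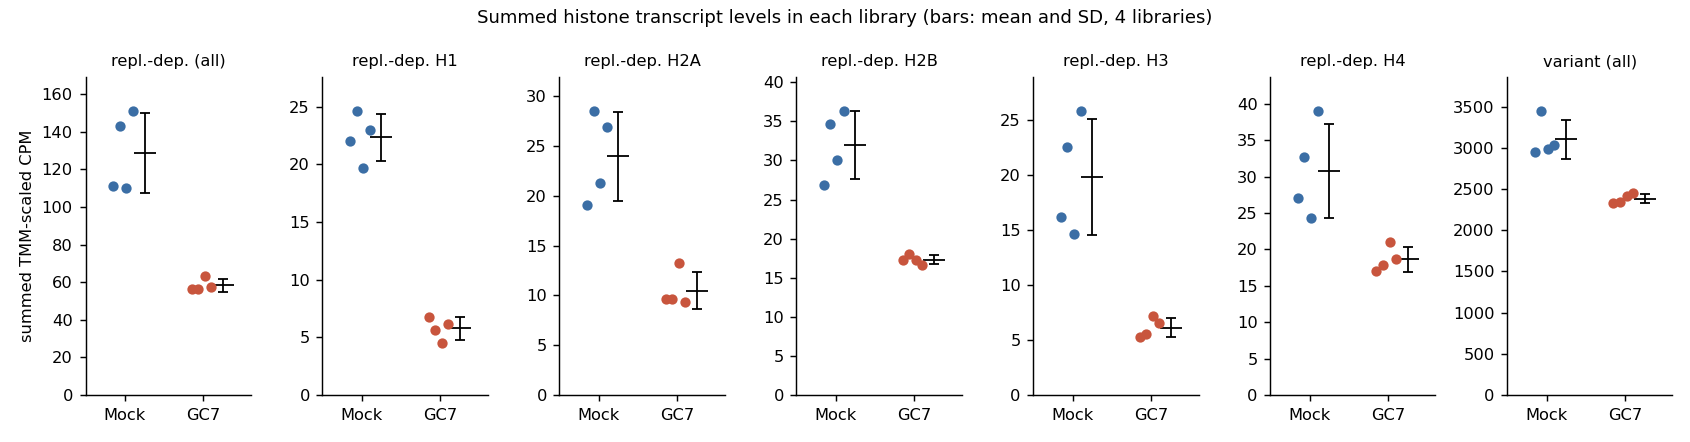
Summed TMM-scaled CPM (y axes, each from 0) of replication-dependent histone genes, of each replication-dependent family and of the variants, with 1 point per library, Mock in blue and GC7 in red, and the mean and SD of 4 libraries beside them. In every panel the 4 GC7 libraries lie below the 4 Mock libraries, from 56.1 to 63.1 against 110 to 151 CPM for all replication-dependent genes.

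All core and linker families contributed, by different amounts. The linker histone H1 genes summed to 22.3 ± 2.02 CPM in Mock and 5.76 ± 0.960 CPM in GC7, 3.88-fold lower. H3 genes were 3.23-fold lower (19.8 ± 5.27 against 6.12 ± 0.877 CPM) and H2A genes 2.29-fold lower (23.9 ± 4.48 against 10.5 ± 1.87 CPM). H2B genes differed by 1.85-fold (32 ± 4.33 against 17.3 ± 0.591 CPM) and H4 genes by 1.65-fold (30.8 ± 6.51 against 18.6 ± 1.71 CPM). The order of the families was not tested, and single genes weigh heavily in some of them. Hist1h4i held 352, 493, 333 and 318 of the 531, 774, 525 and 783 H4 counts in Mock libraries 1 to 4. Without Hist1h1c and Hist1h4i, the sum over the remaining genes was 94.0 ± 20.7 CPM in Mock and 41.0 ± 4.59 CPM in GC7, a ratio of 2.3.

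Gene by gene, replication-dependent genes were called lower and none higher, and the number called depended on the filter on low counts. A filter at 3 CPM in at least 4 libraries left 11189 genes, of which 23.5% were lower in GC7 at an FDR under 0.01 and 23.0% higher (edgeR quasi-likelihood test, Benjamini-Hochberg adjustment over all genes tested, here and below). Only 8 replication-dependent genes passed it, 6 of them lower and none higher, and 5 of those differed more than 2-fold, as 5.31% of all genes did in that direction. Hist1h3c, Hist1h2ag, Hist1h2ao and Hist1h2ap passed through Mock libraries alone, with no GC7 library above 3 CPM, and so had to differ. Of the 4 others, 2 were lower (Hist1h1c and Hist1h4i), 1 of them by more than 2-fold, so the count of 6 is a description and is not read against the shares of all genes. With every gene that had any count, 60 replication-dependent genes entered the test and 40 were lower, none higher, against 11.9% lower and 11.8% higher of 28350 genes. In that fit each gene takes the spread of genes of like abundance rather than its own. With a spread adjusted for low counts, 38 of the 60 were lower, against 11.1% of all genes. The median log2 fold change of the 60 was -1.42 and that of all 28350 genes 0.01. The 4 GC7 libraries lay below all Mock libraries for 40 of the 60, as for 14.3% of all genes with a count. The 28350 genes include those under the 3 CPM filter, and the share called among genes of like counts was not worked out. The 40 called lower also hold pairs with equal counts, Hist1h2ao with Hist1h2ap and Hist1h2bq with Hist1h2br.

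**Figure D2:**
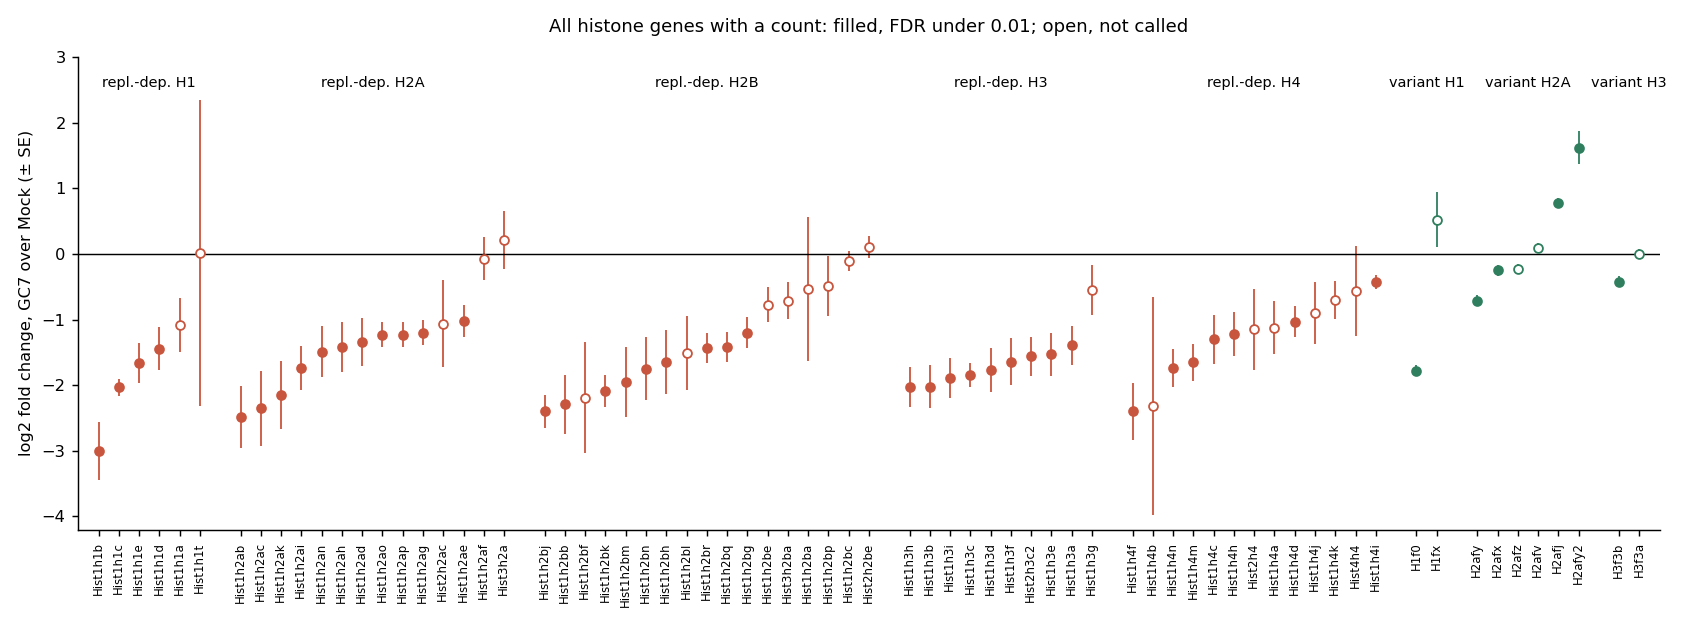
Log2 fold change of GC7 over Mock with its standard error for the 70 histone genes with a count, in the fit without a filter on low counts, grouped by family (replication-dependent red, variants green). Filled points passed an FDR of 0.01 and open points did not. The replication-dependent genes lie mostly between -1 and -3, with no filled point above 0, and the variants lie on both sides of 0.

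Hist1h1c (chr13:23738808-23740367) encodes histone H1.2, a linker histone, and had the largest fall among the genes past the filter. Its level was 17.7, 19.3, 15.9 and 16 CPM in Mock libraries 1 to 4 and 5.62, 4.30, 2.33 and 4.45 CPM in GC7 libraries 1 to 4. The groups were far apart, with a log2 fold change of -2.03 ± 0.183 (SE, FDR = 1.6e-06). No near-identical copy of it was found, and its annotated transcript runs 840 bases past the stem-loop. Hist1h1c was 1 of the 2 replication-dependent genes with the most counts.

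The other was Hist1h4i (chr13:22040636-22041362), an H4 gene. It measured 18, 20.8, 15.4 and 15.9 CPM in Mock and 12.6, 13.9, 13 and 12.9 CPM in GC7. Its groups did not overlap either, but lay close together, and the log2 fold change was -0.42 ± 0.103 (FDR = 0.00388). Scaling by library totals alone gave -0.32 with an FDR of 0.0117, and leaving out Mock library 1, GC7 library 1 or GC7 library 4 gave -0.41, -0.40 and -0.41 with FDRs of 0.0112, 0.0131 and 0.0126, each no longer past the threshold. Per kilobase of exon, Hist1h4i was the highest of the replication-dependent genes past the filter, at 24.1 ± 3.41 CPM per kb in Mock, followed by Hist1h1c at 11 ± 1.03.

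Hist1h3c (chr13:23744973-23745602), an H3 gene of the large cluster, stood at 3.88, 7.61, 4.73 and 7.18 CPM in Mock and at 1.69, 1.45, 2.00 and 1.45 CPM in GC7. The Mock libraries spread widely, and all lay above the GC7 libraries (log2 fold change -1.84 ± 0.234, FDR = 3.0e-05). Hist1h2ag, an H2A gene, measured 3.47, 5.62, 3.66 and 4.19 CPM in Mock and 1.55, 1.63, 2.28 and 1.99 CPM in GC7 (-1.20 ± 0.195, FDR = 2.2e-04). Again the groups did not overlap.

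Hist1h2ao and Hist1h2ap are a pair of H2A genes whose counts agreed within 2 in every library. Hist1h2ao had 68, 136, 90 and 100 counts in Mock and 36, 33, 50 and 47 in GC7, and Hist1h2ap 66, 136, 89 and 100 and 36, 32, 50 and 46. The 2 rows therefore carry the same information and count as 1 observation, lower in GC7 by 1.22 on the log2 scale for Hist1h2ao (SE 0.211, FDR = 3.4e-04). Hist1h2bq and Hist1h2br, under the filter, formed another such pair. Of the 67 replication-dependent genes, 48 share at least 200 bases at 98% identity or more with another gene, and the handling of reads that fit several places was not given in the sources used here, so the level of any one of them is uncertain. With each pair counted once the replication-dependent sum was 121 ± 19.7 CPM in Mock and 55.1 ± 2.31 CPM in GC7. Among the 19 genes with no near-identical copy the sum was 52.3 ± 4.99 CPM in Mock and 26.9 ± 0.80 CPM in GC7, a ratio of 1.94, and 10 of the 18 with a count were lower and none higher without a filter, where 11.9% of all genes were lower and 11.8% higher.

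Hist1h2bc and Hist2h2be, both H2B genes, were the 2 past the filter that were not called, and are the 2 of the 8 whose annotated tails hold no stem-loop letters. Hist2h2be (chr3:96221119-96223738) measured 3.82, 3.93, 3.89 and 3.94 CPM in Mock and 4.21, 4.44, 4.44 and 3.66 CPM in GC7. The groups overlapped, at a log2 fold change of 0.10 ± 0.121 (FDR = 0.500). Hist1h2bc (chr13:23684199-23692908) measured 4.03, 6.05, 5.33 and 6.33 CPM in Mock and 5.86, 5.93, 2.66 and 5.53 CPM in GC7. GC7 libraries 1, 2 and 4 sat inside the Mock range and library 3 lay under it (log2 fold change -0.11 ± 0.223, FDR = 0.684). Other genes with no match in an annotated tail were called. Hist1h2bq and Hist1h2br each have 2 annotated coding transcripts, with tails of 0 and 823 bases and no match. Only annotated transcripts were searched, so a stem-loop outside them would be missed. Both genes fell by 1.43 on the log2 scale in the test with a 1 CPM filter. Without a filter, 30 of the 41 genes with a match and a count were lower, where 11.9% of all genes with a count were. Of the 7 with a searched tail, no match and a count, 2 were called lower. These are the equal pair Hist1h2bq and Hist1h2br and so 1 observation. Log2 fold changes were under 0 in 6 of the 7 (median -1.08) and in 39 of the 41 (median -1.44). The difference between the 2 sets was not tested.

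**Figure D3:**
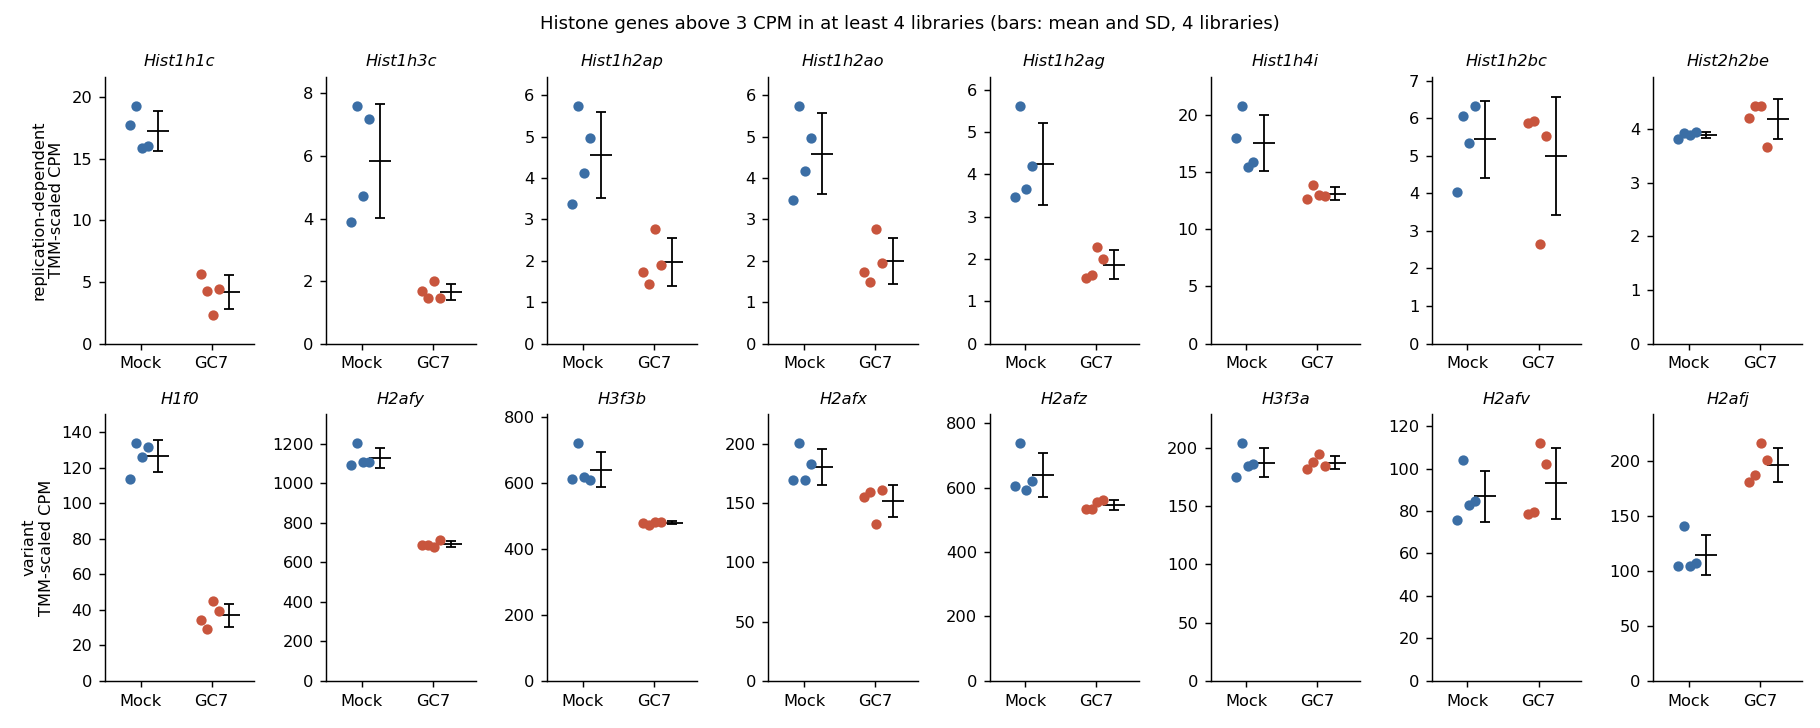
TMM-scaled CPM (y axes, each from 0) of the 16 histone genes past the filter, with 1 point per library and the mean and SD of 4 libraries beside them. The upper row holds the 8 replication-dependent genes, from Hist1h1c, 4.13-fold lower in GC7, to Hist2h2be, whose groups overlap. The lower row holds the 8 variants, from H1f0 to H2afj, the only 1 of the 16 called higher.

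A lower filter, at 1 CPM in at least 4 libraries, tested 26 replication-dependent genes, of which 20 were lower and none higher, where 22.6% of 13035 genes were lower and 21.1% higher. Of the 26, 7 had no GC7 library above 1 CPM (Hist1h1d, Hist1h2bj, Hist1h3e, Hist1h3h, Hist1h3i, Hist1h4n and Hist2h3c2) and so had to differ, and among the 19 others 13 were lower. The H2B genes Hist1h2bj and Hist1h2bk, picked out after their values were seen, had the largest falls there. Hist1h2bj measured 3.31, 4.06, 3.25 and 2.89 CPM in Mock and 0.629, 0.407, 0.888 and 0.665 CPM in GC7 (log2 fold change -2.40 ± 0.229, FDR = 1.7e-06). Hist1h2bk fell by 2.10 (SE 0.262, FDR = 1.9e-05), from 3.33 ± 0.930 to 0.787 ± 0.188 CPM. Neither group of libraries overlapped the other for either gene. Hist1h2bj passed this filter through Mock libraries alone, and both genes were also lower in the test without a filter. Hist1h1b, the linker histone H1.5, was too low for this filter. Its 20, 28, 23 and 29 counts in Mock against 1, 2, 5 and 4 in GC7 gave the largest fall of all members, -3.00 ± 0.440 (FDR = 5.3e-07 with the spread adjusted for low counts).

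The genes under the 3 CPM filter numbered 59 in the replication-dependent set and are given with their highest count in any library. Those lower at an FDR under 0.01 without a filter came from each family. In H1 they were Hist1h1e (58 counts), Hist1h1d (36) and Hist1h1b (29), which encode somatic linker histones. In H2A they were Hist1h2ae (66), Hist1h2ai (49), Hist1h2ad and Hist1h2ah (27 each), Hist1h2ab and Hist1h2ak (24 each), Hist1h2an (23) and Hist1h2ac (16). In H2B they were Hist1h2bk (103), Hist1h2bj (96), Hist1h2bq and Hist1h2br (79 each), Hist1h2bg (63), Hist1h2bb (30), Hist1h2bn (25), Hist1h2bh (22) and Hist1h2bm (18). In H3 they were Hist1h3b and Hist1h3h (60 each), Hist1h3i (50), Hist1h3a and Hist2h3c2 (49 each), Hist1h3f (45), Hist1h3d (38) and Hist1h3e (36). In H4 they were Hist1h4d (86), Hist1h4m (72), Hist1h4n (65), Hist1h4h (48), Hist1h4f (35) and Hist1h4c (31). Their log2 fold changes ran from -3.00 to -1.02. Of these 34 genes, Hist1h4h (FDR = 0.0105) and Hist1h4c (FDR = 0.0170) were not called with the spread adjusted for low counts. Leaving out 1 library ended the call of 11. Without Mock library 4 these were Hist1h2ak, Hist1h2bh, Hist1h2bn, Hist1h3f, Hist1h4c, Hist1h4d and Hist1h4h, with FDRs of 0.0186 (Hist1h2ak) to 0.160 (Hist1h4h). Hist1h2ad, Hist1h2ah and Hist1h2an lost their calls without GC7 library 4 (FDR from 0.0141 to 0.0497), as did Hist1h4c. Hist1h2bm lost its call without Mock library 2, GC7 library 1 or GC7 library 2 (FDR up to 0.0141), Hist1h4c also without GC7 library 1 or 2, and Hist1h2bh and Hist1h4h also without GC7 library 2. The other 23 kept their calls with each library left out.

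Under the filter and not called were Hist1h1a (19) and the testis linker histone gene Hist1h1t (1), Hist1h2af (29), Hist3h2a (13) and Hist2h2ac (12). The H2B genes not called were Hist1h2be (44), Hist3h2ba (42), Hist1h2bp (14), Hist1h2bl (11), Hist1h2bf (7) and the testis gene Hist1h2ba (2). The remainder were Hist1h3g (21), Hist1h4k (55), Hist1h4a (28), Hist1h4j (19), Hist2h4 (17), Hist4h4 (9) and Hist1h4b (2). Calls without a filter were more frequent among members with more counts. Of all 28350 genes with a count 11.9% were lower, and the share among those of like counts was not worked out. Of the 40 genes with more than 100 counts over the 8 libraries 33 were lower, and of the 20 with 1 to 100 counts 7 were. The other 13 of these had log2 fold changes from -2.31 to 0.21 with standard errors of 0.404 to 2.33, and whether few counts or a small difference left them uncalled was not tested. Hist1h2aa, Hist2h2aa1, Hist2h2aa2, Hist2h2ab, Hist2h2bb, Hist2h3b and Hist2h3c1 had no count in any library, which allows a level of up to 0.119 to 0.171 CPM per library (3 counts, counting error only). Each of these 7 overlaps annotated exons of another gene, and whether reads in such overlaps were counted was not given in the sources used here. All but the first lie in the chromosome 3 cluster, where 6 of the 10 genes had no count.

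Promoters were matched for 74 of the 80 members in RefSeq (GRCm38.p6, 250 bases before to 50 after the start). The octamer ATTTGCAT, read on both strands, is the known binding site of OCT1 in H2B promoters. It was present in 14 of 35 replication-dependent H2A and H2B promoters (40.0%), in none of 28 H1, H3 and H4 promoters and in 1.74% of all promoters. The 14 are not all separate sites. Hist1h2aa and Hist1h2ba share a match, as do Hist1h2ae and Hist1h2bg. Hist1h2bk and the H2A gene Hist1h2ah start from opposite strands of 1 stretch and share a match, shown with the octamer in capitals on the strand of Hist1h2bk:

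Hist1h2bk, chr13:22035780-22035809 (+): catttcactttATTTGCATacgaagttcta

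Both genes were lower in GC7, by 2.09 and 1.42 on the log2 scale without a filter. Genes with no octamer in the window were lower too, Hist1h2bj and Hist1h2ag among them, which face each other across another shared stretch.

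Variants moved in both directions. Of the 8 past the filter, 3 were lower and 1 higher, against 23.5% lower and 23.0% higher of all genes tested. The linker histone variant H1f0 (chr15:79028450-79030504) encodes H1.0, a replication-independent H1 known to rise in cells that stop dividing. It measured 114, 134, 126 and 132 CPM in Mock and 34.4, 29.4, 44.9 and 39.1 CPM in GC7. The groups were widely separated, at a log2 fold change of -1.78 ± 0.111 (FDR = 6.8e-08). Hist1h1c fell by 2.03 on the same scale, and H1f0, unlike it, has no stem-loop letters in its 1198-base annotated tail. Linker histones as a family were the lowest relative to Mock in both sets, at 0.258 of the Mock level for the replication-dependent H1 genes and 0.296 for H1f0 and H1fx together. Each of these values rests mainly on 1 gene. In Mock, Hist1h1c held 17.2 of the 22.3 CPM of the replication-dependent H1 genes, and H1f0 held nearly all of the variant H1 sum. H1fx had at most 16 counts and a log2 fold change of 0.52 ± 0.420, not called.

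H2afy (chr13:56073619-56136361) encodes macroH2A1, a large variant associated with silent chromatin, and was the variant with the most counts, 36.4% ± 1.03 of all variant counts in Mock and 29.0% ± 0.716 in GC7. Its level was 1091, 1204, 1110.0 and 1108 CPM in Mock and 688, 689.9, 677 and 714 CPM in GC7, with no overlap (log2 fold change -0.70 ± 0.0620, FDR = 1.3e-06). H2afy2, which encodes the second macroH2A and was under the 3 CPM filter, went the other way. It measured 1.02, 0.888, 0.417 and 1.25 CPM in Mock and 3.10, 2.76, 2.44 and 2.62 CPM in GC7, a rise of 1.61 ± 0.251 on the log2 scale with the 1 CPM filter (FDR = 1.3e-04). H2afy2 met this filter through its GC7 libraries. Without a filter the rise was 1.62 (FDR = 1.7e-06 with the spread adjusted for low counts). Every GC7 library lay above every Mock library, but the level stayed far under that of H2afy. The exons of H2afy2 overlap those of Aifm2, which had a log2 fold change of -0.37 ± 0.113 (FDR = 0.0138) with the 1 CPM filter, the opposite sign.

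H2afj (chr6:136808244-136810074) encodes H2A.J, a variant close in sequence to canonical H2A and known to accumulate in senescent cells. It measured 104, 141, 104 and 107 CPM in Mock and 181, 187, 216 and 201 CPM in GC7. It was the only member past the 3 CPM filter called higher, by 0.78 ± 0.101 on the log2 scale (FDR = 3.5e-05), with no overlap between groups, as for 28.1% of tested genes in that direction. Its share of variant counts was 3.66% ± 0.294 in Mock and 8.21% ± 0.507 in GC7. By sequence class H2afj belongs with the genes that have no stem-loop, while the replication-dependent H2A sum went down.

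The other H2A variants shifted little. H2afz, encoding H2A.Z.1, which marks promoters and has the highest level per kilobase of all members (359 ± 37.8 CPM per kb in Mock), measured 604, 738, 592 and 620.5 CPM in Mock and 534, 533, 556 and 561 CPM in GC7 (log2 fold change -0.23 ± 0.0766, FDR = 0.0228). Its close relative H2afv, encoding H2A.Z.2, measured 75.9, 104, 83.0 and 84.9 CPM in Mock and 78.6, 79.3, 112 and 102 CPM in GC7 (0.09 ± 0.125, FDR = 0.549). H2afx, the variant with a stem-loop, measured 169, 200.5, 169 and 183 CPM in Mock and 155, 159, 132 and 161 CPM in GC7 (-0.25 ± 0.0794, FDR = 0.0165). None of the 3 passed an FDR of 0.01, although the H2afz and H2afx groups did not overlap, as those of 27.5% of tested genes did not in that direction. DESeq2 called both lower, with adjusted p of 0.00741 for H2afz and 0.00691 for H2afx. H2afb1, H2afb2 and H2afb3, testis variants on the X chromosome, had no count.

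The H3.3 genes H3f3a and H3f3b encode the same protein from different genes and differed from each other. H3f3b (chr11:116021912-116027962) measured 613, 721, 618 and 609 CPM in Mock and 479, 473, 483 and 482 CPM in GC7, lower in every GC7 library (log2 fold change -0.42 ± 0.0687, FDR = 2.3e-04). H3f3a measured 175, 204, 184 and 186 CPM in Mock and 182, 188, 195 and 184 CPM in GC7, and these ranges overlapped fully (0.00 to 2 decimals, SE 0.0617, FDR = 0.993). A test of the difference between the 2 genes was not run. H3f3a has 9 near-identical copies in the annotation, H3f3b 1.

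Other RNAs that carry no poly(A) tail were counted in the same libraries to show how much tail-less RNA each held. The 18 genes listed, among them the RNA polymerase III transcripts Rn7sk and Rn7s1, the telomerase RNA Terc and the U7 RNA Rnu7, were nearly absent, with 7 at 0 everywhere and none past the 3 CPM filter. Summed, they reached 2.19, 3.17, 2.92 and 19.5 CPM in Mock libraries 1 to 4 and 1.50, 1.90, 2.28 and 2.04 CPM in GC7 libraries 1 to 4. Mock library 4 stood apart, through Rn7sk with 335 counts there and 33 to 61 in the other Mock libraries. It also held the highest replication-dependent sum, 151 CPM against 110 to 143 in the other Mock libraries. Rn7sk itself was lower in GC7 by 2.04 on the log2 scale with all libraries and without a filter (FDR = 0.00236 with the spread adjusted for low counts). Its level was 1.68, 2.58, 1.76 and 16.7 CPM in Mock libraries 1 to 4 and 1.31 to 1.41 CPM in GC7. The groups did not overlap, as for 14.3% of all genes with a count in that direction. Without Mock library 4 the change of Rn7sk was -0.58 with an FDR of 0.0844, and limma-voom on all libraries gave -1.28 with an adjusted p of 0.124. Without the same library 33 of the 60 replication-dependent genes were lower and none higher, and their Mock share of counts was 0.0117%. With all libraries 11.9% of all genes with a count were lower, and that share was not worked out without Mock library 4. The part that the content of tail-less RNA has in the change of the replication-dependent genes was not tested.

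**Figure D4:**
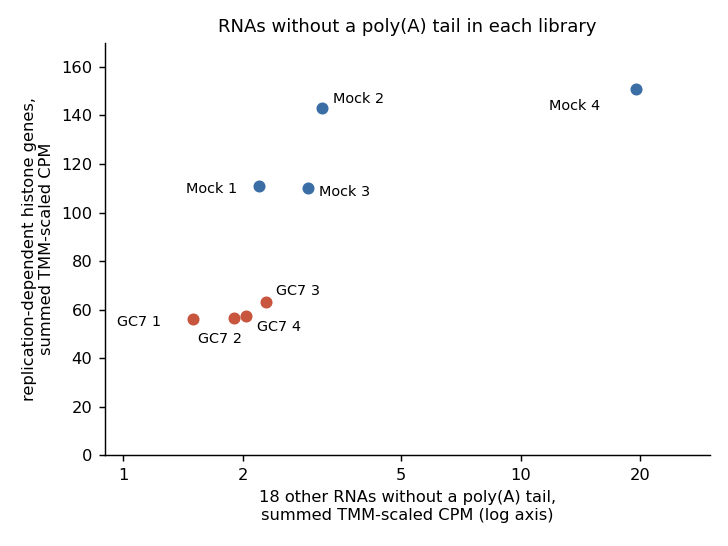
Summed TMM-scaled CPM of the 67 replication-dependent histone genes (y axis, from 0) against that of 18 other RNAs without a poly(A) tail (x axis, log scale), 1 labelled point per library, Mock in blue and GC7 in red. Mock 4 lies far to the right at 19.5 CPM. Among the other libraries the groups overlap along the x axis only through Mock 1 (2.19) and GC7 3 (2.28). The groups are separate on the y axis.

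Genes that supply histones were called in both directions, with small changes. The 3 lists (transcription of histone genes, processing and decay of their mRNAs, and chaperones) hold 69 genes, all past the filter. Of these, 14 were lower (20.3%) and 10 higher (14.5%), near or under the 23.5% and 23.0% of all genes, none of them by 2-fold (5.31% of all genes were lower and 3.17% higher by that much), and their median log2 fold change was -0.01. With library totals as the scale, 8 were lower and 12 higher. Without Mock library 1, Mock library 4, GC7 library 1 or GC7 library 2, 8 to 9 were lower, and without Mock library 1, Mock library 4 or GC7 library 4, 6 were higher. In transcription, Npat, the coactivator that cyclin E and CDK2 switch on at histone clusters, was higher, at 34.6 ± 4.01 CPM in Mock and 49.9 ± 4.01 CPM in GC7 (log2 fold change 0.53 ± 0.0920, FDR = 3.6e-04). Gon4l also rose (0.39, FDR = 0.00229), Yy1 fell by 0.20 (FDR = 0.00554, up to 0.0205 with a library left out), and Casp8ap2, which encodes the NPAT partner FLASH, was at 0.27 ± 0.102 and not called (FDR = 0.0362). In this list 1 of the 10 genes was lower (10.0%) and 2 were higher (20.0%), against 23.5% and 23.0% of all genes.

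Among the 25 genes of processing, translation and decay, 6 were lower and 3 higher. Slbp, whose product binds the stem-loop, measured 164, 163, 153 and 159.7 CPM in Mock and 135, 138, 136 and 141 CPM in GC7, without overlap (log2 fold change -0.22 ± 0.0533, FDR = 0.00367). This call was lost without Mock library 1, Mock library 4, GC7 library 1 or GC7 library 2 (FDR up to 0.0137) and with library totals (-0.12, FDR = 0.0538). Of the U7 snRNP proteins, Lsm10 fell by 0.49 (FDR = 0.00172), while Lsm11 was at 0.09 (FDR = 0.307). Mif4gd, whose product SLIP1 links SLBP to translation, fell by 0.38 (FDR = 6.4e-04) and the cleavage scaffold Sympk by 0.37 (FDR = 2.6e-04). Ctif (0.59, FDR = 0.00446, up to 0.0155 with a library left out), the uridyl transferase Tut4 (0.45, FDR = 5.6e-04) and the cleavage factor Cstf2t (0.31, FDR = 0.00184) rose. Each of these changes was smaller than the median change of the replication-dependent genes.

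Among the 34 chaperone and exchange genes, 7 were lower (20.6%) and 5 higher (14.7%), against 23.5% and 23.0% of all genes tested. The paralogues of the H3-H4 chaperone ASF1 went opposite ways. Asf1a rose by 0.45 ± 0.0988 (FDR = 0.00194) from 20.2 ± 2.73 CPM, and Asf1b, the form tied to dividing cells, fell by 0.24 (SE 0.0598, FDR = 0.00404) from 85.1 ± 4.47 CPM. The call of Asf1b was lost without Mock library 4, GC7 library 1 or GC7 library 2 (FDR up to 0.0134) and with library totals (-0.15, FDR = 0.0365). The CAF-1 subunits that load H3-H4 behind the replication fork were not called, with Chaf1a at -0.12 (FDR = 0.0948) and Chaf1b at -0.14 (FDR = 0.111). Neither were Nasp (0.07, FDR = 0.342) and the H3.3 chaperone Hira (-0.04, FDR = 0.791), whereas Daxx, another H3.3 chaperone, fell by 0.27 (FDR = 0.0062). Daxx stayed past the threshold when Mock library 2 or Mock library 4 was left out and lost its call without any 1 of the other 6 (FDR up to 0.0211). The largest falls were those of Znhit1 (-0.68, FDR = 1.2e-04) and Ruvbl2 (-0.53, FDR = 4.2e-04), subunits of the complex that exchanges H2A.Z, and of the FACT subunit Ssrp1 (-0.42, FDR = 2.9e-04). Nap1l1 (0.33, FDR = 8.4e-04) and the importin Ipo4 (0.32, FDR = 0.00973) rose. Ipo4 kept its call with GC7 library 3 left out and lost it without any 1 of the other 7 (FDR up to 0.0333).

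**Figure D5:**
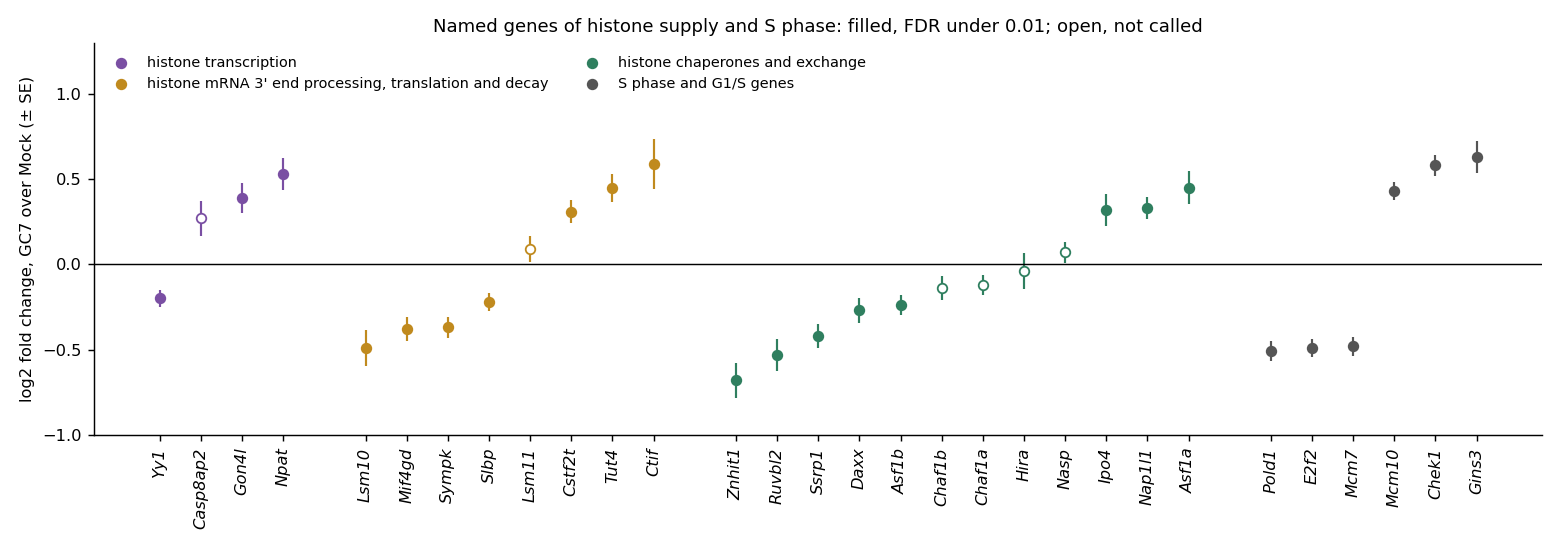
Log2 fold change of GC7 over Mock with its standard error for the 30 named genes of histone transcription, mRNA processing, chaperones and S phase. Filled points passed an FDR of 0.01 and open points did not. All values lie between -0.68 (Znhit1) and 0.63 (Gins3).

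Transcripts of S phase and the G1/S transition were given beside the histone genes because histone mRNA follows DNA synthesis. All 47 passed the filter, with 11 lower and 11 higher (23.4% each, against 23.5% and 23.0% of all genes), none by 2-fold and a median log2 fold change of -0.01. Without Mock library 1, 3 or 4 or GC7 library 2 or 4, 6 to 7 were higher. The DNA polymerase delta subunit Pold1 (-0.51, FDR = 1.2e-05), the transcription factor E2f2 (-0.49, FDR = 9.3e-06) and the replicative helicase subunit Mcm7 (-0.48, FDR = 1.3e-05) had the largest falls. Gins3 (0.63, FDR = 1.3e-04), another part of that helicase, the checkpoint kinase Chek1 (0.58, FDR = 7.8e-06) and the replication factor Mcm10 (0.43, FDR = 2.5e-05) had the largest rises. The list thus held as many lower as higher genes. By Hoechst staining, in an assay apart from these libraries, the study reported a marked build-up of GC7-treated cells in S phase. The part of the share of cells in S phase in the histone values was not tested.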

How the data were processed

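The authors deposited raw counts per gene and library. They trimmed the paired-end reads with cutadapt, aligned them to GRCm38 with STAR and counted them with featureCounts. Strand and the handling of reads that fit several places were not given in the sources used here. Groups and replicate numbers came from the sample labels. The members, gene lists and tests were chosen with earlier results of these data known.

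All 8 libraries entered 1 fit with the group as its only term (edgeR version 4.0.16 in R version 4.3.3, TMM factors, quasi-likelihood F test, Benjamini-Hochberg adjustment). Genes above 3 CPM in at least 4 libraries were tested (11189), and calls needed an FDR under 0.01. Each standard error is the log2 fold change over the root of F. The study's methods name edgeR, and a table of its source data is named for a minimum of 3 CPM. The 4 libraries were chosen here. Without a filter, every gene with 1 count or more was tested. Its prior degrees of freedom were infinite, so a further fit used edgeR's dispersion for low counts, chosen after seeing the data. Other fits used a 1 CPM filter, RLE factors, library totals, DESeq2 (version 1.42.0), limma-voom (limma version 3.58.1), the replicate number as a block, and each library left out. The fits at 3 CPM and without a filter, with each tool and scale, were tested on simulated data.

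Values are mean ± SD of TMM-scaled CPM over 4 libraries unless said otherwise. The total of 17528776 to 25284730 counts per library sets 3 counts at 0.119 to 0.171 CPM. Counts carry no molecular identifiers, so such limits cover counting error only. Near-identical copies are genes whose GENCODE transcripts matched over 200 bases or more at 98% identity or above (BLAST version 2.17.0).

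Named were all variants and replication-dependent genes past the filter, a fixed set of 12 supply genes, and the 3 largest rises and 3 largest falls in each list. Members under the filter were named by their highest count. Hist1h2bj, Hist1h2bk, Hist1h2bq, Hist1h2br, Hist1h1b, H2afy2 and Rn7sk were described further after their values were seen. Lists of NK, red blood cell, CD4 T and stromal markers were also summed: 115 to 142 CPM in Mock and 74.6 to 93.6 in GC7 for NK genes (nearly all Klrk1), 0.459 to 0.592 and 0.362 to 1.11 for red cell genes, 92.6 to 96.9 and 75.2 to 84.5 for CD4 T cell genes (nearly all Zbtb7b, with Cd4 at 0.200 and 0.252 CPM on average), and 51.2 to 55.9 and 30.2 to 32.1 for stromal and endothelial genes (nearly all Pecam1). The B cell sum was 6.98 to 10.1 and 4.61 to 5.90 CPM, mostly Cd79b, and the myeloid sum 4.73 to 6.60 and 4.30 to 5.66 CPM.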

Additional observations from a re-analysis of the deposited data

Results flagged for a closer look

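In 112 groups of 4 libraries, 13 had a highest or lowest library whose gap to its nearest neighbour, over the whole range of the 4, was above the 95% critical value of Dixon's ratio. Chance flags about 1 in 20 groups, and the members share reads and libraries. Mock replicate 2 accounted for 7 of them. It was above the other 3 for H2afj (ratio 0.936), H2afy (0.831), H3f3b (0.927), the summed variants (0.833), the summed H3 variants (0.902) and Mcm7 (0.985), and below them for Tut4 (0.899). GC7 replicate 3 accounted for 5: it was low for Hist1h2bc (0.876, at 2.66 CPM against 5.53 to 5.93), Ruvbl2 (0.865) and Ipo4 (0.931), and high for the summed replication-dependent genes (0.833, at 63.1 CPM against 56.1 to 57.2) and their H2A genes (0.926, at 13.3 CPM against 9.35 to 9.64). Mock replicate 4 was low for Sympk (0.857).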

How the results depend on the processing

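No replication-dependent gene was called higher in any fit run. The count called lower was 6 with the filter at 3 CPM, 5 to 6 over the other scales, tools, the block and each library left out, 20 with the filter at 1 CPM and 40 without a filter. Without a filter it ranged from 32 with limma-voom to 43 without Mock replicate 1. The variants called lower numbered 3, or 5 with DESeq2, and those called higher 1, or 2 with the lower filter or none. The supply genes called lower numbered 14, but 8 with library totals and 8 to 17 with a library left out. Those called higher numbered 10, and 6 to 10 with a library left out. The S phase genes called higher numbered 11, and 6 to 11 with a library left out. None of the tail-less RNAs could be tested with the filter, and edgeR called 2 lower without it. The share of counts on replication-dependent genes was 0.00909% in Mock and 0.00423% in GC7 without Hist1h1c and Hist1h4i, and 0.00570% in GC7 with equal pairs counted once. Over protein-coding genes that are not mitochondrially encoded, it was 0.00635% in GC7, and the share on variants was 0.326% in Mock and 0.260% in GC7. Among the histone genes past the filter and the other genes named, signs turned in 4, none of them called. Hist1h2bc ranged from -0.23 to 0.08 and H2afv from -0.01 to 0.19 with a library left out, the turn in each coming without GC7 replicate 3. H3f3a was at 0.09 with library totals, 0.00 with limma-voom, and -0.03 to 0.05 with a library left out. Hira was at 0.06 with library totals and -0.10 to 0.05 with a library left out. Of the 10 histone genes called, 9 kept their call with each library left out, as did 18 of the 24 named supply and S phase genes. The cause was not tested. Library totals put the median log2 fold change of all genes at 0.11, against 0.02. Of the 34 replication-dependent genes under the 3 CPM filter that were called lower without a filter, 23 kept their call with each library left out.

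Same-numbered libraries had correlations of 0.272, -0.116, 0.202 and -0.183 in their deviations from the group means. Deviations from a mean of 4 libraries depend on each other, so these values cannot decide whether the numbers pair the samples. With the replicate number as a block, 7 S phase genes were called higher and 10 lower, 6 replication-dependent genes lower, 3 variants lower and 1 higher, and 11 supply genes lower and 8 higher. H3f3a was at 0.00 with the block.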
